A study of Mus musculus with 7 samples.

Results

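The genes described here are 9 costimulatory and coinhibitory genes, 8 of the B7 and CD28 families and Cd40 of the TNF receptor family, taken by symbol from a table of 24015 genes: the ligands Cd86, Cd80, Icosl, Cd274, Pdcd1lg2 and Cd276, the receptor Cd40, and Cd28 and Ctla4, which T cells carry. They were measured in haematopoietic stem cells (HSCs) of the bone marrow of C57BL/6 mice, 3 libraries from old and 4 from young animals, by bulk RNA sequencing. The cells were sorted as lineage-negative, Sca-1+ and Kit+ (LSK) with CD150 on the surface and CD48 absent. The labels give no ages and do not say whether each library came from its own mouse or from a pool, so p-values measure the spread between these libraries, which may be partly technical. The family was chosen by the values of Cd86, which differed between old and young HSCs in this table. The values of Cd86 in that contrast are therefore a description and not a test, and the other members came with the family.

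T cells that meet antigen need a further signal from the cell that presents it. CD80 and CD86, the classical B7 ligands, give that signal through CD28 and are bound more tightly by CTLA-4, which restrains the T cell. ICOSL, PD-L1 (Cd274), PD-L2 (Pdcd1lg2) and B7-H3 (Cd276) are related ligands, of which both PD ligands engage the inhibitory receptor PD-1, and CD40 is a TNF receptor family member whose engagement raises B7 ligands on dendritic cells, macrophages and B cells. In blood-forming tissue CD86 is best known from such antigen-presenting cells.

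The libraries held 22203806 to 32401925 counts, and 11506 genes had enough counts to be tested. Of the 9 members, 5 passed that filter (Cd86, Icosl, Cd274, Pdcd1lg2 and Cd276), and Cd86 did so through its young libraries alone. Levels are given as CPM, which relates counts to a library's scaled total, and a count of 0 in a library allowed up to 0.0929 to 0.137 CPM, the worth of 3 counts, for counting error only. Member counts were all or none: of 63 values, 34 were 0, 0 lay between 1 and 9 counts and 29 were 10 or more. Among all genes with at least 1 count, 22.1% of values were 0 and 5.15% lay between 1 and 9 counts; the members' 34 zeros include 7 of Cd40, which had no count at all. On the first principal component young 1 stood apart (score 220.9, against -90.4 to 53.45 in the other libraries), and on the second young 2 did (196.9, against -80.2 to 24.26). Of the genes for the sorted surface markers, Kit was at 136 to 332 CPM in old HSCs and 170 to 546 CPM in young HSCs, and Slamf1, which encodes CD150, at 102 to 278 and 60.6 to 99.2 CPM. Ly6a, which encodes Sca-1, was at 270.4 to 991 CPM in old HSCs and 101 to 234 CPM in young HSCs. Cd48, whose product was absent from the surface by the sort, had 0 counts in old libraries but 157, 41, 677 and 476 counts in young 1 to young 4. The sort was by surface protein and these counts are of RNA, so they do not tell whether sorted young cells carried CD48.

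Cd86 was counted in every young library and in no old library. It had 0 counts in old 1, old 2 and old 3, against 444, 1392, 655 and 671 counts in young 1 to young 4. As levels, these were 0 CPM in each old library and 19.4, 63.6, 23.7 and 23.4 CPM in the young libraries. The groups did not overlap, and young 2 was the high library, 2.69 times the next. The young mean was 32.5 ± 20.8 CPM (SD, n = 4). Set against the floor of 3 counts per library (0.107 CPM over the old libraries), Cd86 was at least 303-fold lower in old HSCs. Without young 2 it was at least 207-fold lower. These bounds cover counting error only. A library could read 0 for a gene that others of its group held. Tnfsf4 had 0 counts in young 2, against 12.1, 22.4 and 30.2 CPM in young 1, young 3 and young 4. Cd86 was the only member called in the comparison of old with young HSCs (edgeR's quasi-likelihood test, adjusted p under 0.05), where 0.252% of all tested genes were called and 0.0174% were called as lower in old. At an unadjusted p under 0.05 it was again the only member, where 9.12% of tested genes passed, and the only member whose groups did not overlap with old below young, as in 5.18% of tested genes. Since this contrast chose the gene, nothing is read from these counts. The call was lost without each of the 7 libraries in turn (old 1, old 2, old 3, young 1, young 2, young 3 or young 4), with limma-voom and with library size alone. In bulk libraries, fewer cells that carry Cd86 and less Cd86 RNA per cell cannot be told apart.

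Cd80, the closest relative of Cd86 in function, was near the limit of detection. It had 0 counts in all 3 old libraries and in young 1 and young 2, and 15 and 14 counts (0.542 and 0.487 CPM) in young 3 and young 4. The libraries with counts were therefore both young, but the young mean was only 2.4-fold above the old floor, a lower bound for counting error only. Cd80 did not pass the filter for low counts, and without that filter its adjusted p was 0.525 (edgeR). Cd86 was highest in young 2, where Cd80 had no count. The 2 genes lie on chromosome 16, with 25 protein-coding genes between them in the GENCODE M21 annotation of GRCm38. That build is not the mm9 of the submitters' processing notes, so the positions given further on, of promoters, are those of GRCm38.p6 and not of the counted genes.

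**Figure D1:**
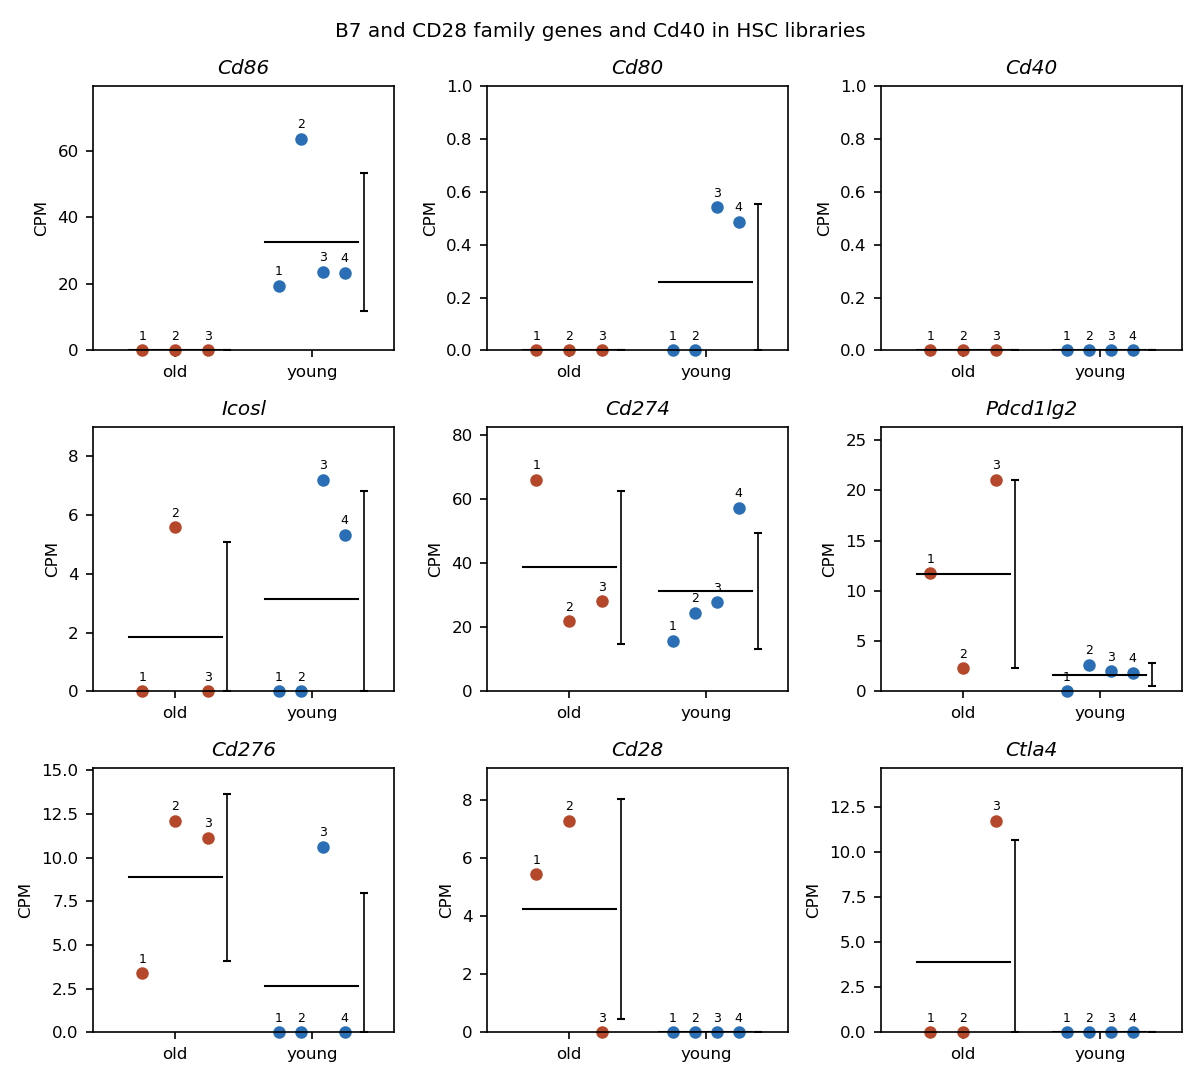
CPM of each member in every library (points, numbered by library; old in red on the left, young in blue on the right of each panel), with the group mean as a line and the SD beside it, drawn no lower than 0. Cd86 sits at 0 in all 3 old libraries and between 19.4 and 63.6 CPM in the 4 young ones, while Cd28 and Ctla4 have counts in old libraries alone.

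Since Cd86 was chosen by these values, the genes that share its pattern are given as a description, and their number supports nothing about it. In all, 29 of 24015 genes had 0 counts in every old library and at least 1 count in every young library, and 55 had the opposite pattern. With a minimum of 10 CPM in every young library, a level chosen after the values were seen, Cd86 was the only such gene. In the opposite direction, with 0 counts in every young library and at least 10 CPM in every old one, there were 5 genes, Aldh3a1, Gipc2, Tmem215, Ntf3 and Zg16. Next to Cd86 by young mean among the 29 came Utp20, which acts in ribosomal RNA processing, at 29.4 CPM, with 0.594 CPM in young 2 and up to 53.0 CPM elsewhere. Fcna, which encodes ficolin A, a lectin of macrophages, followed at 16.5 CPM. Further down, Cd48 averaged 12.4 CPM.

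**Figure D2:**
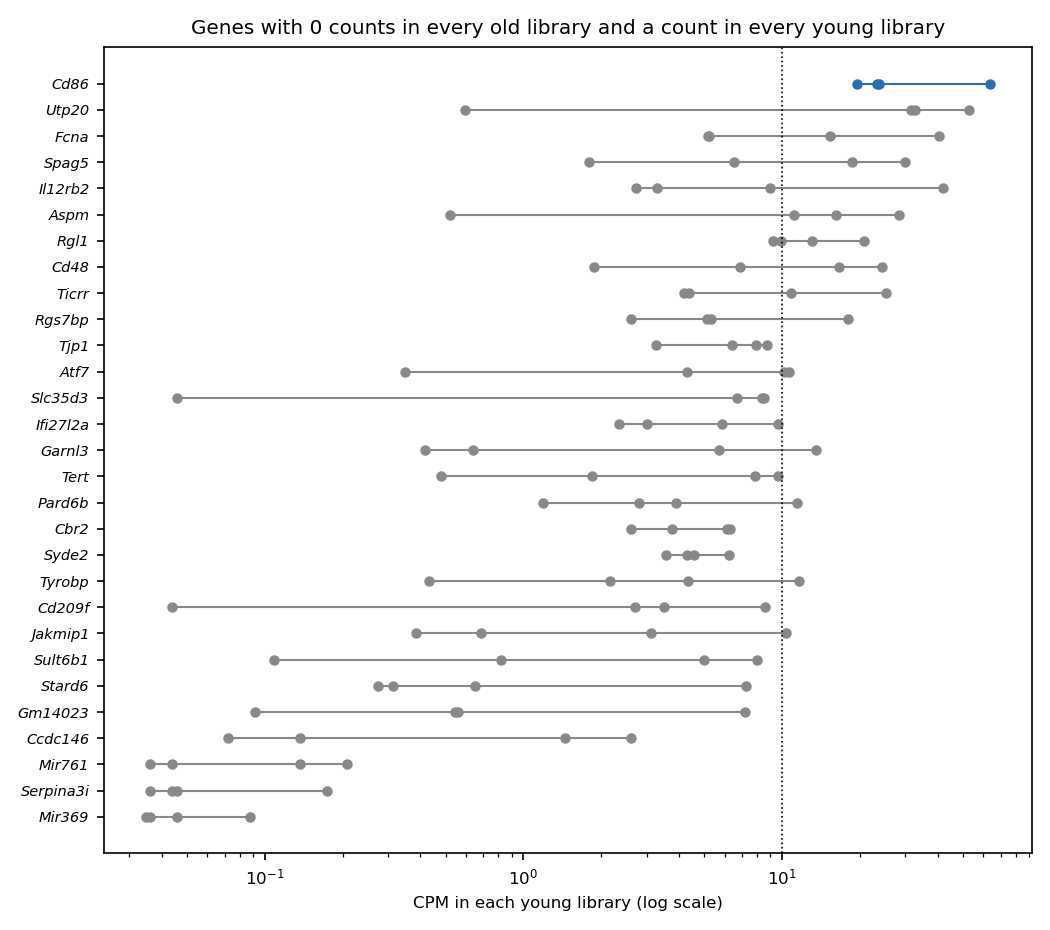
CPM in each of the 4 young libraries (points on a log axis, joined by a line) for the 29 genes with 0 counts in every old library and a count in every young one, ordered by young mean. Cd86, in blue, is the gene whose 4 points all lie right of the dotted line at 10 CPM.

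The 5 genes most like Cd86 over the 7 libraries, by the Pearson correlation of log2 CPM, were Cbr2 (0.991), Rgl1 (0.990), Ifi27l2a (0.989), Fcna (0.984) and Syde2 (0.983). All 5 had 0 counts in every old library, so the 3 old points of each coincide with those of Cd86. Within the young libraries they differed from each other. Fcna had 15.3, 40.3, 5.20 and 5.19 CPM in young 1 to young 4 and, like Cd86, was highest in young 2. Rgl1, an activator of Ral GTPases, had 9.90, 13.1, 20.8 and 9.23 CPM and was highest in young 3. Syde2 was highest in young 1 (6.22 CPM) and lowest in young 2 (3.56 CPM).

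Markers of multipotent progenitors, the dividing descendants of HSCs, summed, like Cd86, to less in every old library than in any young one. Of 8 listed, 5 had counts and 4 were tested, each with a log2 fold change below 0 (median -6.44, or -4.18 with Cd48 and Flt3, at 0 in old HSCs, set to the floor of 3 counts), and edgeR called 0. Their summed level was 96.1 to 150 CPM in old HSCs and 274 to 435 CPM in young HSCs, most of it Cd34. The sums of erythroid markers and of coinhibitory partners, lists given further on, were also lower in every old library than in any young one. Those of the dendritic cell, granulocyte, HSC and adhesion lists were higher in every old library. Cd34 averaged 109 ± 25.03 CPM in old (SD, n = 3) and 308 ± 70.6 CPM in young HSCs (SD, n = 4; adjusted p = 0.0819, edgeR). Cd48 had 0 counts in old libraries and 6.88, 1.87, 24.4 and 16.6 CPM in young 1 to young 4. Flt3, a cytokine receptor, had 0 counts in old libraries and in young 1, and 6.26, 36.2 and 9.54 CPM in young 2 to young 4. Of all tested genes, 27% had 0 in at least 1 library, so nothing is read from the 0 of Flt3 in young 1. DESeq2 called Cd34, Cd48 and Flt3 lower in old HSCs (adjusted p = 9.40e-06, 4.24e-07 and 0.000754). With edgeR, Cd48 and Flt3 were not called (adjusted p = 0.159 and 0.297). Both entered these fits through their young libraries alone. With 0 counts in every old library, the counts do not fix the size of their fold changes. The part of such progenitors in the Cd86 difference was not tested.

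Several defining markers of mature antigen-presenting cells had no count, while others were present. Of 13 dendritic cell markers, 7 had no count in any library, Itgax, Siglech, Ccr7, Batf3, Clec10a, Cd209a and Ccr9, and the summed level was 101 to 114 CPM in old HSCs and 63.8 to 88.6 CPM in young HSCs, most of it Bst2, which many cells express. The 4 tested were not called, and 3 of them had a positive log2 fold change (median 0.35). Clec9a had 7.55, 9.63 and 1.81 CPM in old 1 to old 3, against 0.131, 0, 0 and 1.01 CPM in young 1 to young 4 (adjusted p = 0.624, edgeR). Of 14 monocyte and macrophage markers, the defining Csf1r, Cx3cr1, Emr1 (now Adgre1), Ccr2 and F13a1 had no count in any library. The summed level of 907 to 1470 CPM in old HSCs and 735 to 1420 CPM in young HSCs was mostly Lyz2, and 4 were tested (median log2 fold change -0.21) with 0 calls. Cd68, a lysosomal membrane protein, had 20.02, 7.15 and 15.3 CPM in old 1 to old 3, against 36.4, 64.3, 41.7 and 16.2 CPM in young 1 to young 4 (adjusted p = 0.615, edgeR). Ms4a6c had 12.9 to 19.4 CPM in old HSCs and 0.0876, 62.0, 13.6 and 31.9 CPM in young 1 to young 4. Cd68 and Ms4a6c were thus highest in young 2, as Cd86 was, but Ms4a6c was near 0 in young 1. Cd14 went the other way between the groups. It had 8.61, 8.82 and 11.3 CPM in old 1 to old 3, against 0, 7.58, 2.96 and 0 CPM in young 1 to young 4 (adjusted p = 0.935, edgeR). Of the 4 tested monocyte and macrophage markers, 2 had a positive and 2 a negative log2 fold change. Of 12 B cell markers, 5 had counts and 1, Cd79b, was tested (log2 fold change 0.06, not called), Pax5, Ebf1 and Ms4a1 were among the 7 without a count, and the sums were 73.4 to 200 CPM in old HSCs and 122 to 185 CPM in young HSCs. The part of these cells in the Cd86 values was not tested beyond these levels.

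Of 11 granulocyte and granulocyte precursor markers, 8 had counts and 4 were tested (median log2 fold change 0.16), with sums of 574 to 800 CPM in old HSCs and 136 to 237 CPM in young HSCs. The serine protease gene Prtn3 rose, at 645 ± 116 CPM in old HSCs and 151 ± 43.8 CPM in young HSCs (adjusted p = 0.0242, edgeR). That call was lost without old 1, old 2, old 3, young 2 or young 4 (adjusted p of 0.0504 to 0.141). Prtn3 made up most of these sums, and other members of the list did not follow it. Mpo, the myeloperoxidase gene, had 0 counts in every old library and 24.6, 7.90, 0 and 0 CPM in young 1 to young 4, too few libraries to be tested by edgeR. DESeq2 called it lower in old HSCs (log2 fold change -24.25, adjusted p = 1.13e-09). With 0 counts in every old library, the counts do not fix the size of that fold change, and young 3 and young 4 did not differ from old. S100a8 had a log2 fold change of -2.44 (adjusted p = 0.898, edgeR). Of 10 erythroid markers, the 4 globin genes had no count in any library, 4 were tested (median log2 fold change -0.76) and 0 were called, with sums of 23.5 to 83.4 CPM in old HSCs and 96.3 to 138 CPM in young HSCs. Of the 15 HSC markers, Procr rose (332 ± 47.9 CPM in old HSCs and 49.8 ± 11.8 CPM in young HSCs, adjusted p = 0.00643), a positive log2 fold change was seen in 10 (list median 0.61), and the sums were 4330 to 5070 CPM in old HSCs and 2430 to 3410 CPM in young HSCs. The Procr call was lost without old 1 (adjusted p = 0.0558) or old 3 (adjusted p = 0.0503).

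The PD-1 ligand genes Cd274 and Pdcd1lg2 were the members found in most libraries. They lie next to each other on chromosome 19, with 0 protein-coding genes between them (GENCODE M21). The 250 bases before the RefSeq start of each are shown because the pair shares a locus and a receptor but differed in level. They come from the RefSeq promoter table of build GRCm38.p6, plus strand, at chr19:29367188-29367437 for Cd274 and chr19:29410669-29410918 for Pdcd1lg2, and capitals mark the motif matches found.
Cd274: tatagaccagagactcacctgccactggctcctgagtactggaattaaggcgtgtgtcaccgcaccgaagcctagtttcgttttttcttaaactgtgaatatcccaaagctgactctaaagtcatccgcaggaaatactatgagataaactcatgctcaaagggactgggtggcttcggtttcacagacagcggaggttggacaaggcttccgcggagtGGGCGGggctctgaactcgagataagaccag
Pdcd1lg2: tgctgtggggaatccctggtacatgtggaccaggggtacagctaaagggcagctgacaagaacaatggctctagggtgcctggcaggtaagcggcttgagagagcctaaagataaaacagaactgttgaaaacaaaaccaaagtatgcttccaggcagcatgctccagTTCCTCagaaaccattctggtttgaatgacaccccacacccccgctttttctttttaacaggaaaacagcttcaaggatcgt
Motifs were searched on both strands, and a match is a description of letters only. The capitals in Cd274 are a GC box (GGGCGG), present in 32.7% of 32851 such windows, and those in Pdcd1lg2 are the core of sites for PU.1 (GAGGAA, here on the other strand), present in 23.3%. Neither window held the interferon gamma activated site TTCNNNGAA (7.02% of windows), the core of the interferon-stimulated response element (2.98%), the AP-1 site TGANTCA (6.75%), a CCAAT box (33.8%) or a TATA box (TATAAA, 12.4%). Of the 9 members, 6 matched the promoter table, and Cd86, Cd40 and Cd28 did not.

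Cd274, which encodes PD-L1, was the only member with counts in all 7 libraries and its groups differed by less than the spread between libraries. It had 66.1, 21.98 and 28.1 CPM in old 1 to old 3, against 15.8, 24.5, 27.9 and 57.4 CPM in young 1 to young 4. Old 1 and young 4 were the high libraries, and the groups overlapped through most of their range. The means were 38.7 ± 23.9 CPM in old HSCs and 31.4 ± 18.1 CPM in young HSCs, giving a log2 fold change of 0.30 ± 0.66 (SE, adjusted p = 0.977, edgeR), which was -0.33 without old 1. An antisense gene shares 511 bases of exon with Cd274 in GENCODE M21, and the library kit does not mark strand, so reads of the 2 cannot be told apart there.

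Pdcd1lg2, which encodes PD-L2, was counted in all 3 old libraries and in 3 of 4 young ones. It had 11.8, 2.29 and 21.1 CPM in old 1 to old 3, against 0, 2.65, 2.02 and 1.88 CPM in young 1 to young 4. Old 1 and old 3 lay above every young library, and old 2 lay within the young range. The mean was 11.7 ± 9.38 CPM in old HSCs and 1.64 ± 1.14 CPM in young HSCs, 7.15-fold, but the difference was not past the threshold (log2 fold change 2.83 ± 1.77, adjusted p = 0.763, edgeR; adjusted p = 0.391, DESeq2).

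Cd276, whose product B7-H3 has mostly been linked to T cell inhibition, was counted in every old library and in 1 young one. Its levels were 3.40, 12.1 and 11.1 CPM in old 1 to old 3, against 0, 0, 10.6 and 0 CPM in young 1 to young 4. Young 3 alone reached the range of the old libraries. The means of 8.88 ± 4.77 CPM in old HSCs and 2.65 ± 5.31 CPM in young HSCs did not differ past the threshold (log2 fold change 1.74 ± 2.48, adjusted p = 0.960, edgeR). Without young 3, every young library was at 0. Exons of a gene on the other strand, Gm10657, cover 416 bases of Cd276, with the same limit on strand.

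Icosl, the ligand of ICOS on T cells, had 0, 5.57 and 0 CPM in old 1 to old 3, against 0, 0, 7.19 and 5.33 CPM in young 1 to young 4. It was thus present at a like level in 1 old and 2 young libraries and without counts in the others. The log2 fold change was -0.75 ± 2.85 (adjusted p = 0.986, edgeR). Cd40 had 0 counts in all 7 libraries, and its ligand Cd40lg had none either. The 0 counts of Cd40 allowed a level of up to 0.0929 to 0.137 CPM per library, for counting error only.

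The receptors of T cells, Cd28 and Ctla4, had counts in some old libraries and in none of the young. Cd28, the receptor through which CD80 and CD86 stimulate, had 144, 235 and 0 counts (5.44, 7.27 and 0 CPM) in old 1 to old 3, and 0 counts in each young library. Ctla4, which binds the same ligands, had 305 counts (11.7 CPM) in old 3 and 0 in the 6 other libraries. No library held both: Cd28 was in old 1 and old 2, and Ctla4 in old 3. Against the floor of 3 counts per young library the old means were at least 35.2-fold (Cd28) and at least 32.5-fold (Ctla4) higher, for counting error only. Yet Cd28 had no count in old 3 and Ctla4 none in old 1 and old 2. Neither passed the filter for low counts. Without it their adjusted p values were 0.459 and 0.524 (edgeR), and DESeq2 gave Cd28 an adjusted p of 0.142. The genes are neighbours on chromosome 1, followed by Icos, which had no count in any library.

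Markers of T cells were otherwise nearly without counts. Of 12 listed, Cd3e, Cd8a, Cd8b1, Trat1, Il7r and Themis had no count in any library, and Cd3d and Cd3g had at most 2 counts in a library. The summed level was 3.97 to 6.81 CPM in old HSCs and 0.776 to 15.1 CPM in young HSCs, the highest being young 3 with 14.1 CPM of Cd4. The 1 marker tested, Cd247, a signalling chain of the T cell receptor, had 3.66, 6.35 and 5.76 CPM in old 1 to old 3, against 1.45, 0, 0.722 and 5.57 CPM in young 1 to young 4, and was not called (log2 fold change 1.44, adjusted p = 0.946, edgeR). The part of T cells in the Cd28 and Ctla4 values was not tested beyond these levels.

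Per length, Cd274 and Cd86 were the most abundant members in the groups that held them. Dividing CPM by the summed exon length in GENCODE M21 (1961 to 6122 bases), Cd274 was at 10.7 ± 6.59 CPM per kb in old HSCs, followed by Pdcd1lg2 (5.97 ± 4.78), Cd276 (2.43 ± 1.30), Ctla4 (1.68 ± 2.90), Cd28 (0.692 ± 0.618) and Icosl (0.402 ± 0.696). In young HSCs Cd86 stood at 8.88 ± 5.68 CPM per kb and Cd274 at 8.67 ± 4.98, followed by Pdcd1lg2 (0.835 ± 0.582), Cd276 (0.726 ± 1.45), Icosl (0.677 ± 0.799) and Cd80 (0.0695 ± 0.0805). Neighbours in either order overlapped over the libraries, with the exception of Cd274 and Pdcd1lg2 in young HSCs, where Cd274 ran from 4.37 to 15.8 and Pdcd1lg2 from 0 to 1.35 CPM per kb.

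No gene of the 4 lists of other costimulatory, coinhibitory and adhesion genes passed the test. Of 11 further B7 and CD28 family genes, 4 had counts in any library and 3 were tested (median log2 fold change -0.02, that of all tested genes being -0.03), with 0 calls. The inhibitory ligand VISTA (4632428N05Rik, now Vsir) had 33.9, 17.0 and 0.0384 CPM in old 1 to old 3, against 24.5, 30.8, 9.28 and 4.11 CPM in young 1 to young 4. Tnfrsf14, the receptor of BTLA and LIGHT, was at 0 to 7.42 CPM in old HSCs and 0 to 1.53 CPM in young HSCs, and Cd160 at 0 to 1.61 and 0 to 5.21 CPM. The receptors Pdcd1, which encodes PD-1, and Btla had no count in any library.

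Of 12 TNF superfamily genes of costimulation, 6 had counts and were tested, 5 of them with a positive log2 fold change (median 0.23), and 0 were called. Cd27, the most abundant, averaged 160.4 ± 31.0 CPM in old HSCs and 162 ± 28.7 CPM in young HSCs, and Tnfrsf18, which encodes GITR, 107 ± 17.8 and 106 ± 33.1 CPM. The ligand genes Tnfsf9 (27.6 to 38.5 CPM in old HSCs and 9.45 to 42.4 CPM in young HSCs), Tnfsf4 (7.82 to 34.2 and 0 to 30.2 CPM) and Tnfsf14 (1.42 to 14.0 and 0 to 6.13 CPM) overlapped between the groups. Tnfrsf4, the receptor of Tnfsf4, was at 0 to 8.02 CPM in old HSCs and 0 to 9.86 CPM in young HSCs.

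**Figure D3:**
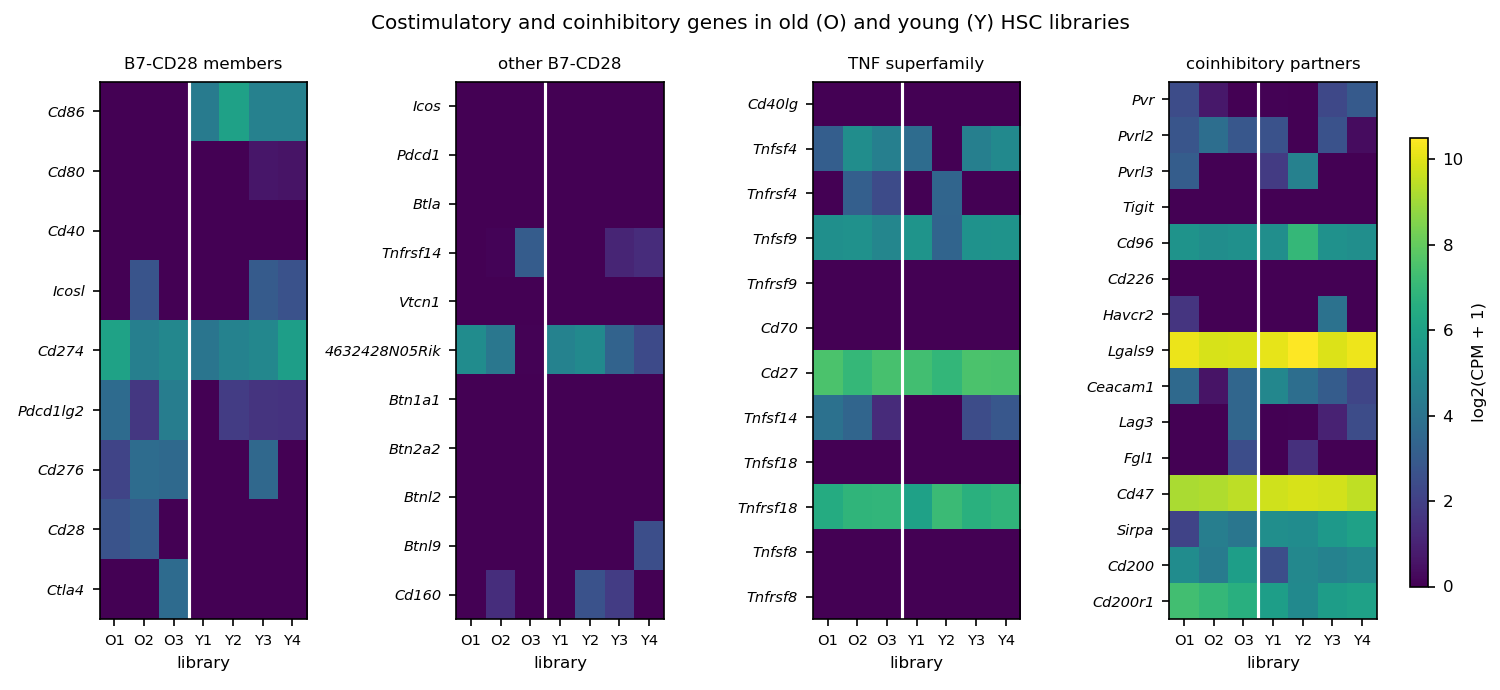
Level of each gene as log2(CPM + 1), by colour, in the 3 old (O1 to O3) and 4 young (Y1 to Y4) libraries, for the 9 members and 3 lists of related genes. Cd86 changes at the white line between the groups, while Cd27, Tnfrsf18, Lgals9 and Cd47 are present in every library.

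Of 15 coinhibitory partners of the CD226 and TIGIT system and related pairs, 13 had counts and 11 were tested, with 0 calls, 7 negative log2 fold changes and a median of -0.44. Cd200r1, an inhibitory receptor of myeloid cells, averaged 128 ± 31.9 CPM in old HSCs and 52.1 ± 14.3 CPM in young HSCs (adjusted p = 0.2, edgeR; adjusted p = 0.0217, DESeq2). Cd47, which signals to phagocytes through the receptor encoded by Sirpa, averaged 626 ± 70.4 CPM in old HSCs and 847 ± 87.9 CPM in young HSCs (adjusted p = 0.518, edgeR). Sirpa itself averaged 13.8 ± 9.42 and 45.8 ± 13.9 CPM (adjusted p = 0.524, edgeR). For each of these 3, the old and young values did not overlap, which held for 12.7% of all tested genes. Of 11 adhesion genes of the contact between T cells and presenting cells, 7 had counts and 5 were tested, with 0 calls and a median log2 fold change of -0.48. Alcam, the ligand of CD6, averaged 101 ± 31.4 CPM in old HSCs and 25.7 ± 20.7 CPM in young HSCs and Icam2, an integrin ligand, 199 ± 8.39 and 108 ± 38.3 CPM (adjusted p = 0.360 for each, edgeR). The list also holds Cd48, given above.

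Among 23 genes of CD28 signalling, 19 were tested, 13 with a negative log2 fold change (median -0.39), and 1 was called. Pik3r1, the regulatory subunit of phosphoinositide 3-kinase, rose, with 277, 336 and 374 CPM in old 1 to old 3, against 133, 107, 133 and 105 CPM in young 1 to young 4 (log2 fold change 1.46 ± 0.22, adjusted p = 0.0457, edgeR). The groups did not overlap, but the call was lost without each library in turn (adjusted p of 0.141, 0.133 and 0.253 without old 1, old 2 and old 3, and of 0.0920, 0.0536, 0.113 and 0.124 without young 1 to young 4). Akt1, a kinase that acts after it, averaged 17.7 ± 5.73 CPM in old HSCs and 88.8 ± 77.1 CPM in young HSCs, where young 3 and young 4 (179 and 127 CPM) lay far above young 1 and young 2 (31.0 and 18.5 CPM; adjusted p = 0.346, edgeR; adjusted p = 0.0481, DESeq2). Ptpn6, a phosphatase of inhibitory receptors, averaged 228 ± 55.4 and 347 ± 99.9 CPM (adjusted p = 0.597, edgeR).

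Of 19 genes of CD40 and NF-kappaB signalling, all 19 were tested, 12 with a log2 fold change below 0 (median -0.28), and none was called. Nfkbia, the inhibitor of NF-kappaB, averaged 450 ± 162 CPM in old HSCs and 155 ± 82.2 CPM in young HSCs (adjusted p = 0.197, edgeR; adjusted p = 0.0137, DESeq2). The kinase subunit gene Ikbkb averaged 21.8 ± 5.80 CPM in old HSCs and 63.0 ± 29.0 CPM in young HSCs (adjusted p = 0.397, edgeR). Ikbkg, the regulatory subunit, averaged 36.5 ± 11.4 CPM in old HSCs and 81.2 ± 42.4 CPM in young HSCs (adjusted p = 0.634, edgeR). Of 19 interferon and JAK-STAT regulators of B7 genes, 17 were tested with 0 calls and a median log2 fold change of 0.04. Ifngr1, a chain of the interferon gamma receptor, averaged 499 ± 114 CPM in old HSCs and 286 ± 35.9 CPM in young HSCs (adjusted p = 0.208, edgeR; adjusted p = 0.0151, DESeq2). Stat3 averaged 53.1 ± 6.31 and 90.0 ± 17.2 CPM (adjusted p = 0.504, edgeR). Irf1, which acts on Cd274 after interferon gamma, had 88.1 to 164 CPM in old HSCs and 108 to 156 CPM in young HSCs, and the groups overlapped. Irf8 had 0, 0.186 and 0.0384 CPM in old 1 to old 3, against 0.0438, 0, 12.2 and 33.7 CPM in young 1 to young 4. It did not pass the filter for edgeR. DESeq2 called it lower in old HSCs (adjusted p = 0.0418), through young 3 and young 4. Ciita, the coactivator of MHC class II genes, had 0.415, 2.35 and 0.999 CPM in old 1 to old 3 and 0 counts in the young libraries (adjusted p = 0.276, edgeR).

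MHC class II genes encode the molecules that present antigen beside B7 ligands, and none passed the test. Of 11 listed, 10 were tested, 7 with a positive log2 fold change (median 0.71) and 0 called, and the summed level was 624 to 3530 CPM in old HSCs and 708 to 1400 CPM in young HSCs. H2-Aa had 455, 42.2 and 94.2 CPM in old 1 to old 3, against 39.1, 138, 35.4 and 51.4 CPM in young 1 to young 4 (adjusted p = 0.612, edgeR). H2-Eb1 averaged 71.3 ± 77.5 CPM in old HSCs and 4.42 ± 3.82 CPM in young HSCs (adjusted p = 0.314, edgeR; adjusted p = 0.0203, DESeq2). Old 1 held 156 CPM of it and old 2 held 5.01 CPM, within the young range. H2-DMb1 averaged 195 ± 50.9 and 115 ± 30.7 CPM (adjusted p = 0.444, edgeR). Old 1 was the high library for H2-Aa and H2-Eb1 and also for Cd274.

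Over the 8 pathway lists, 90 of 120 genes were tested and 1 was called (1.11%, against 0.252% of all tested genes), and over all lists of pathways and markers 3 of 125 tested genes, Pik3r1, Prtn3 and Procr, all higher in old HSCs. DESeq2, which called 5.06% of the genes it tested, called 17 genes of these lists, 11 higher and 6 lower in old HSCs.

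**Figure D4:**
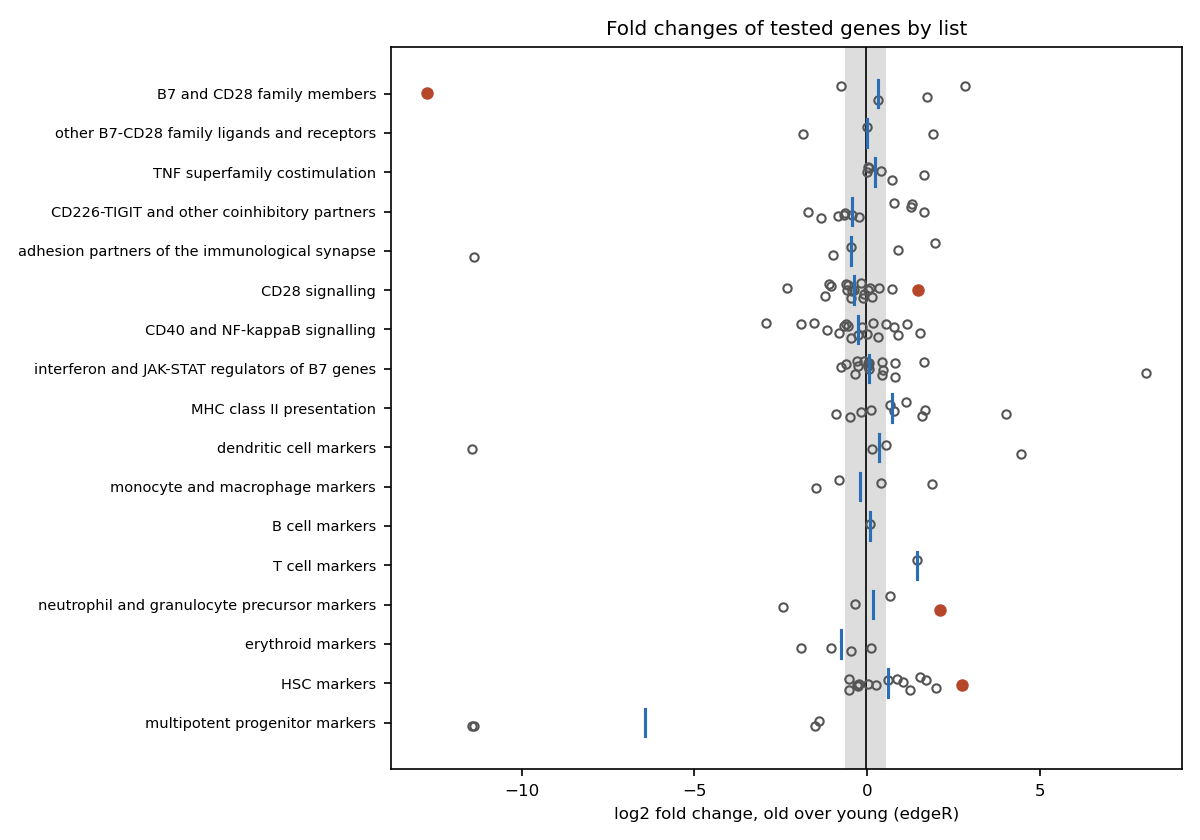
Log2 fold change of each tested gene, old over young (edgeR), by list, with called genes filled in red, list medians as blue bars, and the middle 50% and the median of all tested genes as a grey band and a black line. Cd86, Cd48 and Flt3 at the far left and Ciita at the far right have 0 counts in 1 group, and their fitted fold changes depend on the prior count.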

How the data were processed

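Polyadenylated RNA of sorted HSCs was made into cDNA with Smart-seq+ and into libraries with Nextera XT, per the labels' protocols; this kit does not mark strand. The submitters' processing notes name Trimmomatic, FastQC, STAR, featureCounts and the build mm9, without versions or settings. What the authors deposited is a table of unscaled whole-number counts, with a row for each gene symbol and a column for each library. No molecular identifiers are mentioned, so the floors cover counting error only.

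Old was compared with young in R 4.3.3 with edgeR 4.0.16 (filterByExpr with minimum count 10 and total 15, TMM, glmQLFit and glmQLFTest, 2-sided, Benjamini-Hochberg over 11506 genes, threshold 0.05). The SE of a log2 fold change is its size over the root of the F statistic. CPM use TMM-scaled totals. DESeq2 1.42.0, limma 3.58.1 (voom), other scalings and filters, a replicate block and leaving out libraries were alternatives. Every pair of libraries differed by more than sampling noise.

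The members, 16 lists of related genes and cell type markers and the rule for named genes (the members, up to 3 tested genes a list, by smallest p, and the 5 genes most like Cd86) were chosen with earlier results of these data known. Genes outside that rule (Cd27, Tnfrsf18, Tnfsf9, Lgals9, Cd4, Irf1, Irf8, Cd96, Ms4a6c, H2-Ab1, Mpo, Ly6a, Kit, Slamf1, Utp20 and the 5 genes of the opposite pattern) were named after their values were seen. Some list genes are not reported here.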

Additional observations from a re-analysis of the deposited data

Results flagged for a closer look

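In the 4 young libraries a single value lay far from the other 3 for 8 of the genes named, by Dixon's test at the 95% level. Chance alone passes that level in about 1 of 20 groups of normally distributed values, a rate that need not hold for values with many zeros. For Cd276 and Tnfrsf4 the other 3 values were all 0, so the test passed by construction. Among the members, the flagged values were Cd86 in young 2 (63.6 CPM, where the others had 19.4 to 23.7 CPM) and Cd276 in young 3 (10.6 CPM, against 0). In young 2, Cd96, a receptor of T and NK cells, stood at 128 CPM, where the others had 35.4 to 38.9 CPM, H2-Aa at 138 CPM against 35.4 to 51.4 CPM, H2-Ab1 at 178 CPM against 111 to 118 CPM, and Tnfrsf4 at 9.86 CPM against 0. Tnfsf9 was low there (9.45 CPM, against 39.3 to 42.4 CPM). Clec9a was at 1.01 CPM in young 4, where the others had 0 to 0.131 CPM, and every old library lay above that value.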

How the results depend on the processing

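Over the whole table edgeR called 29 genes, DESeq2 591, limma-voom 50, edgeR on library size alone 16, and edgeR without young 1 and young 2, an alternative chosen after seeing the data, 7. Leaving out 1 library gave 2 to 18. Of the members, 1 was called (Cd86), and 0 with limma-voom, with library size alone, without young 1 and young 2, and without any 1 library (0 to 0). In these fits 1 or 2 members had an unadjusted p under 0.05. Of the list genes 3 were called, 17 by DESeq2, 0 without young 1 and young 2, and 0 to 2 without 1 library. The Cd86 fold bound ran from 207 to 344 without 1 library and was 235 with libraries thinned to the smallest total. Replicate numbers are shared between groups but did not pair the samples (correlations of same-numbered libraries 0.0254, -0.0745 and -0.0136). With the replicate block edgeR called 0 genes, 0 members and 0 list genes, with 694, 1 and 16 at an unadjusted p under 0.05. Log2 fold changes that turned sign were those of Cd274 (-0.33 to 0.77 without 1 library), Tnfrsf14 (-4.21 to 2.48), 4632428N05Rik (-1.01 to 0.57; 0.20 without young 1 and 0.43 without young 2), Tnfsf4 (-0.12 to 0.90; -0.0074 without young 2), Tnfrsf4 (-0.24 to 1.31), Csf3r (-0.056 to 1.47) and Cd79b (-0.15 to 0.39; -0.14 without old 3, -0.011 without young 1, -0.037 with limma-voom and -0.023 with library size alone), the ranges being those without 1 library. None of these was called in any fit. The causes were not tested. Library size alone moved the median of all tested genes from -0.03 to -0.12 and the replicate block to 0.10. A count of 0 in a library allowed up to 0.0929 to 0.137 CPM, for counting error only.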
